A study of Homo sapiens with 48 samples.

Results

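The 45 genes described here, HID1 apart, encode machinery that carries proteins from the endoplasmic reticulum (ER) to the Golgi. It also returns ER proteins from there. HID1, listed with them, encodes a Golgi protein needed to form dense core secretory vesicles. All 45 were chosen by name and role from a written list. The rule used no measured value, but earlier results of these data were known. All 45 symbols were found among the 58302 genes of the deposited count table. All 45 also passed the low count filter in each of the 4 cell clones, so none was lost before testing. By role they comprised 14 genes of the COPII coat and its assembly, 10 of the COPI coat with ARF4 and its regulators, 3 KDEL receptors, 6 p24 proteins, 4 cargo receptors, 2 tethers, 5 SNAREs and HID1.

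Messenger RNA was sequenced from AMO1, an established human multiple myeloma line, in which doxycycline (Dox) switched on short hairpin RNAs (shRNAs) against ERN1, the gene of IRE1 (shIRE1), or against XBP1 (shXBP1). The cells were single-cell clones, clones 1 and 3 for shIRE1 and clones 1 and 18 for shXBP1, so that each clone stands for 1 founder cell. Every clone was sampled without Dox (0 h) and after 24, 48 and 72 h of 0.2 µg/ml Dox, with 3 biological replicates at each time, which makes 48 libraries. Dox cells with a non-targeting hairpin were not analysed here, and an effect of Dox itself cannot be told apart from an effect of the hairpins.

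Proteins leave the ER in vesicles coated by COPII. The GTPase SAR1, loaded by PREB, recruits SEC23 and SEC24, and SEC24 binds the cargo, while SEC13 and SEC31 form the outer cage. COPI vesicles, built on ARF proteins, bring escaped ER residents back, and the KDEL receptors recognise the tail of those residents. The p24 proteins and lectins such as LMAN1 gather cargo into the vesicles, and tethers and SNAREs dock and fuse them. IRE1 is an ER stress sensor whose RNase removes an intron from XBP1 mRNA, and the protein XBP1s made from the spliced mRNA is a transcription factor known to raise secretory pathway genes in plasma cells, the cell type from which myeloma arises.

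Library totals ran from 19177855 to 40767202 counts, so that 1 count was worth at most 0.0521 CPM, the unit used here for counts scaled to a common library total. Levels are given as CPM scaled by the trimmed mean of M values (TMM) over all 48 libraries. They are relative to the RNA of the whole culture, in which fewer cells of a kind and less RNA per cell cannot be told apart. In both shIRE1 clones mean ERN1 levels were lower with Dox at every time than at 0 h, from 152 to 102 CPM at 72 h in clone 1 and from 438 to 125 CPM in clone 3. In the shXBP1 clones mean ERN1 was 188 and 414 CPM at 0 h and 315 and 338 CPM at 72 h. In the shXBP1 clones mean XBP1 went from 167 to 34.0 CPM and from 170.1 to 37.9 CPM, the last value being 40.9 CPM without replicate 3 of clone 18 at 72 h, and in the shIRE1 clones it was 138 and 121 CPM at 72 h, against 179 and 217 CPM at 0 h. The plasma cell marker SDC1 had group means of 6222 to 12777 CPM, while those of the B cell genes PAX5 and CD22 were at most 0.0312 CPM and CD3E of T cells reached 16.4 CPM. The library labelled shXBP1 clone 18, 72 h, replicate 3 stood apart. The shXBP1 clones differed in 1 direction by at least 1 on the log2 scale at 0, 24 and 48 h for 692 genes. At 656 of these genes that library lay nearer clone 1 than clone 18. For the log2 fold changes of single genes in this clone at 72 h, and for medians over them, a value in square brackets is the one without it. Counts without it are given beside those with it. At 72 h, 36 of the 45 log2 fold changes in this clone were higher without it, by a median over the 45 genes of 0.0501 and at most 0.232 (HID1). The calls of COPB1, COPZ1, SEC24A and SEC22B at 72 h were lost without it. Replicate 1 of shIRE1 clone 3 at 24 h correlated slightly better with clone 1 than with its own group (r of 0.9944 against 0.9923).

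Promoters, taken as 250 bases before to 50 bases after the RefSeq start on GRCh38.p14, were matched for 39 of the 45 genes. No entry was found for SEC24D, ARF4, KDELR2, TMED9, USO1 and HID1. The matched promoters were searched on both strands for TGACGTGG, the core of the unfolded protein response element (UPRE) that XBP1s is known to bind, and for the shorter XBP1 core GCCACGT. The letters overlap, since TGACGTGG followed by C also holds GCCACGT on the other strand. The UPRE core stood in 9 of 39 promoters (23.1%), in 3 of 47 promoters of other ER to Golgi traffic genes (6.38%) and in 0.795% of all 27305 promoters. The XBP1 core stood in 15 of 39 (38.5%), in 7 of 47 (14.9%) and in 3.30% of all. The longer ER stress elements, ERSE (CCAAT, any 9 bases, CCACG) and ERSE-II (ATTGG, any base, CCACG), were found in 0 of 39. ERSE and ERSE-II stood in 0.0806% and 0.0549% of all promoters, so few that 0 of 39 does not set these genes apart. The other traffic genes were listed with earlier results of these data known. A match describes letters, not binding.

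Every UPRE core match is shown with 10 bases on each side, on the strand that reads TGACGTGG, with the core in capitals. Positions are counted from the start site to the first base of the match along the gene. The match lay on the gene's own strand in COPA (position 6), SEC23A (-4), SEC24A (-179) and STX5 (-16), and on the reverse strand in COPB1 (-48), COPB2 (-163 and 31), GBF1 (6), KDELR3 (-46) and SEC16A (16).
COPA, chromosome 1: agagggtcgcTGACGTGGaggcgtccga
COPB1, chromosome 11: agtccttggcTGACGTGGaagggggtgg
COPB2 at -163, chromosome 3: ctaagggccgTGACGTGGtgccgctgag
COPB2 at 31, chromosome 3: tcagactgacTGACGTGGaacttccggg
GBF1, chromosome 10: gtcagctcacTGACGTGGtaactagcct
KDELR3, chromosome 22: ggccgggcggTGACGTGGccagggcggc
SEC16A, chromosome 9: tcagtccggcTGACGTGGcaccagggcc
SEC23A, chromosome 14: cccctcctctTGACGTGGcagaggcggc
SEC24A, chromosome 5: tgagagtcggTGACGTGGcggcgaggcc
STX5, chromosome 11: tacgtgtaggTGACGTGGccgcttccag

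The shorter XBP1 core without the UPRE core is shown in the same way for 6 genes that are described further, with GCCACGT in capitals. It lay on the gene's own strand in SEC13 (position 24) and TMED3 (29), and on the reverse strand in COPG1 (-8), SEC24C (-72), SURF4 (-53) and TMED2 (-95).
COPG1, chromosome 3: gccccgactgGCCACGTcgcccagcgc
SEC13, chromosome 3: gccgggagctGCCACGTccgagacctg
SEC24C, chromosome 10: cacttcttctGCCACGTctgcatttcg
SURF4, chromosome 9: tccagcggctGCCACGTaggccaagcc
TMED2, chromosome 12: tcccgcagctGCCACGTaaagggaggc
TMED3, chromosome 15: ctccgctggtGCCACGTctatcccctt

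KDELR3 had the largest change with shIRE1 among genes with a promoter entry, and its 250 bases before the start are given on the gene's strand (chr22:38467846-38468095, plus strand, GRCh38.p14), with the joined UPRE and XBP1 cores in capitals.
KDELR3: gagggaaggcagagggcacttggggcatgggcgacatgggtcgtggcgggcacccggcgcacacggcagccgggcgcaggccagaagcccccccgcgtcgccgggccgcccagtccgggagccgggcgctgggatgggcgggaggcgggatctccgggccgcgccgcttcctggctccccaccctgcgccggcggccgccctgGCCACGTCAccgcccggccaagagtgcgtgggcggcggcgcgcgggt

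Before Dox, the genes spanned a wide range of levels per kilobase of exon (CPM per kb, exon union of GENCODE 44, mean of the 4 clones). KDELR1 was highest at 168.9 CPM per kb, followed by ARCN1, the delta subunit of COPI, at 149 and SURF4 at 143. KDELR1 was 144 to 185 over the clones, which overlaps the ranges of ARCN1 (144 to 156) and SURF4 (122 to 160.2), so the order of these 3 was not the same in every clone. Among the KDEL receptors KDELR2 came next at 37.1 and KDELR3 was lowest at 5.51 CPM per kb, and these orders held in every clone. The SEC24 paralogs lay closer together, SEC24C at 26.6, SEC24D at 19.96, SEC24A at 17.0 and SEC24B at 13.5 CPM per kb. Their order did not hold in every clone, since SEC24A (15.4) was above SEC24D (14.1) in shIRE1 clone 1. SEC24D reached 28.6 CPM per kb in shXBP1 clone 18. HID1 (3.29), GOSR2 (2.58) and SEC22B (0.381) were the lowest. The order depends on the length used, since the union takes in every annotated exon (14366 bases for GOSR2, 1913 for KDELR3). In CPM at 0 h GOSR2 stood at 28.9 to 51.4 over the clones and KDELR3 at 6.39 to 17.3, the reverse of their order per kb. Exons of 28 of the 45 genes overlap another gene, in 7 cases on the same strand (COPE, COPB1, KDELR2, SEC31A, ARFGAP3, TMED7 and GOSR2). Whether the counting used strand is not given in the sources used here, so counts at those genes are less certain. The same holds for 9 genes with pseudogenes named as the gene's symbol followed by P, of which ARF4 and SAR1A have 4 each. Copies under other names were not searched for, so the low level of SEC22B is no less open to this limit.

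The first question was how the genes changed while IRE1 was silenced. Most of them fell in both clones. In shIRE1 clone 1, 25 of 45 were lower at 24 h (edgeR adjusted p under 0.05, adjusted over all genes tested), where 29.0% of all genes tested were lower. At 48 h 33 were lower (31.5% of all) and at 72 h 32 were lower (31.1%). Few were higher, 5, 2 and 2 of 45 at 24, 48 and 72 h, where 32.4%, 33.9% and 32.5% of all genes were higher. In clone 3, 33, 36 and 36 of 45 were lower, where 23.3%, 31.6% and 30.5% of all genes were lower. In the same clone 2, 2 and 3 were higher, where 22.8%, 31.6% and 29.7% of all genes were higher. The median log2 fold change of the 45 genes at 72 h was -0.38 in clone 1 and -0.62 in clone 3, against medians of 0.02 and 0.02 over all genes tested.

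The same question was asked for XBP1 silencing, and the genes that changed there nearly all fell. In shXBP1 clone 1, 24, 23 and 26 of 45 genes were lower at 24, 48 and 72 h, where 12.8%, 15.5% and 16.8% of all genes were lower. There 0, 1 and 1 were higher, where 13.9%, 16.6% and 16.8% of all genes were higher. In clone 18, 19, 28 and 37 were lower and 0 were higher at each time. Over all genes in that clone, 1.30%, 3.50% and 5.55% were lower and 0.291%, 2.28% and 4.41% were higher. Where 0 of the 45 were called higher, 0 were also higher at an unadjusted p under 0.05 and with DESeq2. Without its library that stood apart, 25, 36 and 33 were lower, where 3.33%, 7.16% and 4.48% of all genes were lower. Leaving out a 0 h library lowered the counts in this clone, to 6 at 24 h without replicate 2, to 17 at 48 h without replicate 2 and to 23 at 72 h without replicate 3. Median log2 fold changes of the 45 genes at 72 h were -0.27 in clone 1 and -0.43 in clone 18 (-0.38 without that library), against -0.01 over all genes in both.

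**Figure D1:**
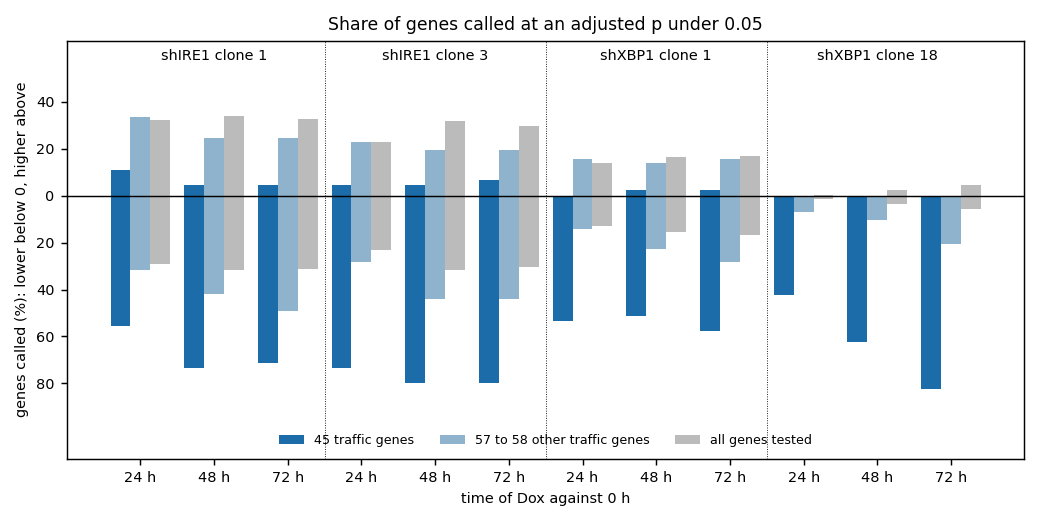
Share of genes called lower (below 0) and higher (above 0) against 0 h of the same clone, in percent, for the 45 traffic genes, for 57 to 58 other traffic genes and for all genes tested. The share of the 45 genes that was lower exceeds that of all genes at each time in all 4 clones, and reaches 37 of 45 in shXBP1 clone 18 at 72 h.

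Counts of higher and lower genes depended on the scaling. With libraries scaled by their total counts in place of TMM, an alternative chosen after the data were seen, the median of all genes rose by 0.112 to 0.167 on the log2 scale in the shIRE1 comparisons and by 0.0424 to 0.0884 in the shXBP1 ones. The split of higher and lower genes became 13 and 19 in shIRE1 clone 1 at 24 h (5 and 25 with TMM), 6 and 27 at 48 h (2 and 33), 5 and 26 at 72 h (2 and 32), and 6 and 32 in clone 3 at 48 h (2 and 36). Over all genes the same scaling gave 43.8% higher and 19.6% lower, 43.2% and 23.2%, and 41.4% and 22.8% in clone 1 at 24, 48 and 72 h, and 41.6% and 22.7% in clone 3 at 48 h. With this scaling 16, 19 and 20 were lower in shXBP1 clone 1 at 24, 48 and 72 h (24, 23 and 26 with TMM). There 0, 3 and 3 were higher, where 19.1%, 22.8% and 23.4% of all genes were higher and 8.44%, 11.3% and 11.5% lower. In clone 18, 15, 20 and 32 were lower (19, 28 and 37 with TMM) and 0 were higher at each time. Of all genes there, 0.884%, 2.54% and 4.25% were lower and 0.510%, 3.70% and 9.52% higher. The lower genes stayed the larger group among the 45 in each.

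A second list of 60 other ER to Golgi traffic genes was made with earlier results of these data known. Of these genes 57 or 58 were tested in a clone, and they moved less uniformly. At 72 h 14 were higher and 28 lower in shIRE1 clone 1, 11 and 25 in clone 3, 9 and 16 in shXBP1 clone 1, and 0 and 12 in clone 18 (0 and 8 without the library that stood apart). Their medians were -0.13, -0.13, -0.06 and -0.08 [-0.04]. In all 4 clones 4 of them were lower at 72 h, chosen here after their values were seen: ARF1, the main ARF of the COPI coat, the Golgi stacking protein GORASP2, the p24 protein TMED4 and YIF1B. The log2 fold changes of ARF1 were -0.74, -0.63, -0.62 and -0.43 [-0.38], and those of GORASP2 were -0.62, -0.66, -0.47 and -0.34 [-0.32]. YIF1B was not called in clone 18 without the library that stood apart (-0.41).

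Individual libraries gave the same picture. At 72 h every library with Dox lay below every 0 h library of its clone for 34, 36, 27 and 41 of the 45 genes in shIRE1 clones 1 and 3 and shXBP1 clones 1 and 18, where this held for 32.9%, 30.9%, 23.9% and 16.3% of all genes tested. Every library lay above for 2, 4, 4 and 1 of the 45, against 34.8%, 31.5%, 27.1% and 14.1% of all. With the 2 other 72 h libraries of clone 18 alone, 42 lay below and 1 above. That condition is easier to meet, and its share over all genes was not counted. At that time 18 genes were called lower in all 4 clones (1.22% of all genes tested in the 4): SEC24D, SEC13 and PREB of COPII, COPG1, COPE and COPZ1 of COPI, ARF4, KDELR1, KDELR2, TMED2, TMED3, TMED9, TMED10, LMAN1, LMAN2, MCFD2, SURF4 and HID1. Without the library that stood apart these were 17 (1.17% of all), the one lost being COPZ1. Both shIRE1 clones were lower for 29 genes (21.4% of all) and both shXBP1 clones for 23 (2.19%), or 22 without that library (1.93%). SEC24B and MIA3, a cargo receptor for collagen also called TANGO1, were called in none of the 4, and the other 43 were lower in at least 1 clone. SEC23A, SEC23B, GBF1, ARFGAP3, GOSR2 and YKT6 were higher in 1 clone and lower in another. The shares of all genes called in no clone, lower in at least 1, or in opposite directions were not counted. These last counts therefore have no background to be set against.

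**Figure D2:**
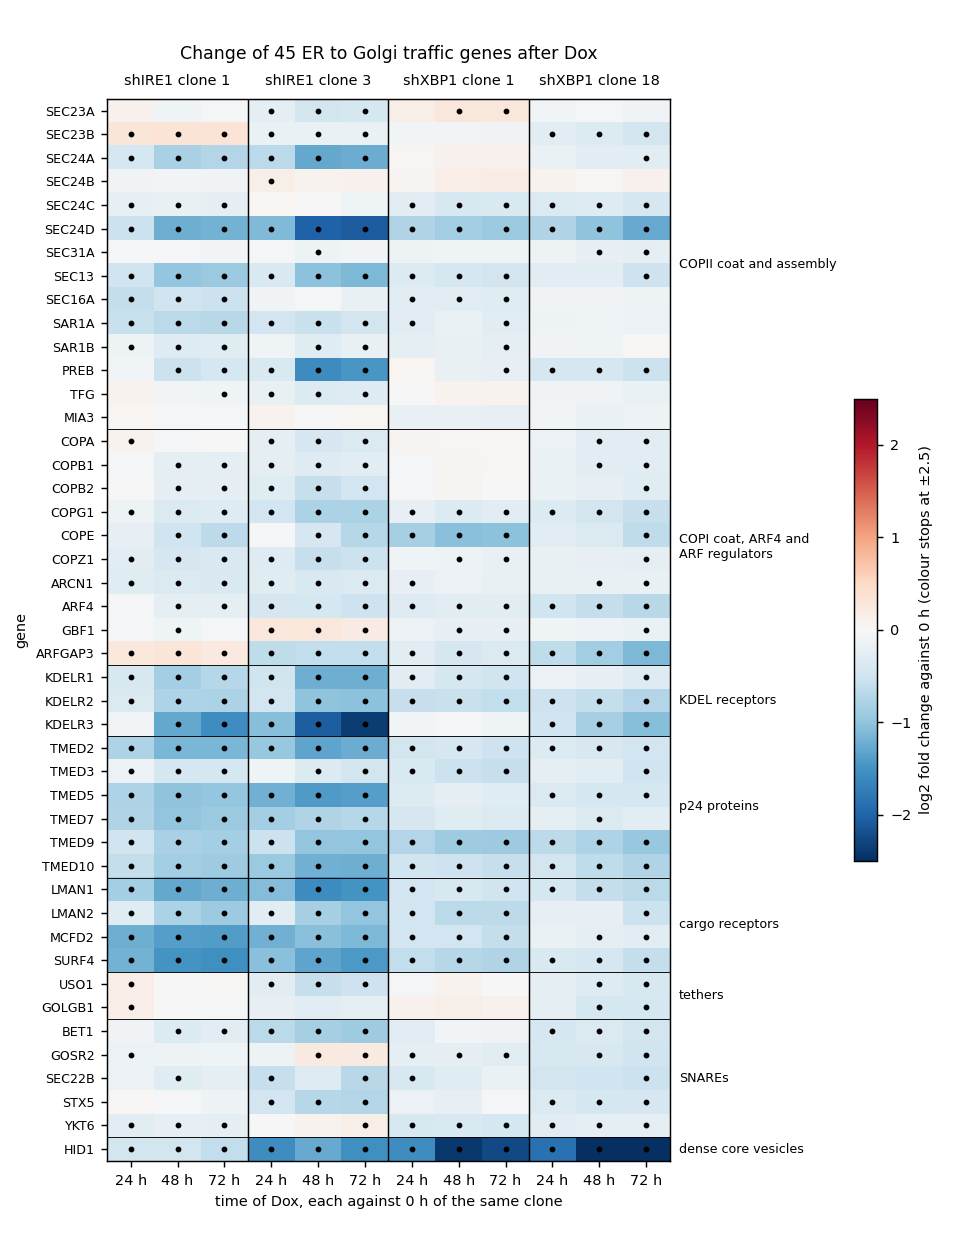
Log2 fold change of each of the 45 genes (vertical axis, grouped by role) at 24, 48 and 72 h of Dox against 0 h of the same clone (horizontal axis), blue for lower and red for higher, with colour ending at ±2.5 and a dot where the edgeR adjusted p was under 0.05. Blue fills the KDEL receptors, p24 proteins and cargo receptors in the shIRE1 clones, while the deepest blue in the shXBP1 clones is HID1, at -2.26 and -3.24 at 72 h.

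Among the 14 COPII genes, 9 were lower and 1 higher in shIRE1 clone 1 at 72 h, 9 and 0 in clone 3, 7 and 1 in shXBP1 clone 1 and 7 and 0 in clone 18 (6 and 0 without the library that stood apart). Of all genes tested, 31.1%, 30.5%, 16.8% and 5.55% were lower in the same order, and 32.5%, 29.7%, 16.8% and 4.41% were higher. These shares also belong beside the counts by role below. The deepest fall among the COPII genes was that of SEC24D, 1 of 4 paralogs of the cargo-binding subunit. SEC24D stood at 151, 137 and 131 CPM in the 3 replicates of shIRE1 clone 1 at 0 h and at 61.7, 61.6 and 62.7 CPM at 72 h. It went from 216, 212 and 215 CPM to 51.2, 48.8 and 53.3 CPM in clone 3. The groups did not overlap, and levels at 48 h (60.7, 57.2 and 61.2 CPM in clone 1) were already close to those at 72 h. The log2 fold changes at 72 h were -1.18 (SE 0.0507, edgeR adjusted p = 3.15e-13) and -2.08 (SE 0.0504, adjusted p = 1.90e-13).

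SEC24D also fell in the shXBP1 clones. It went from 144, 161 and 158 CPM to 80.8, 85.2 and 82.0 CPM at 72 h in clone 1 and from 277, 287 and 286 CPM to 134, 137 and 82.3 CPM in clone 18, the last value being that of the library that stood apart. The log2 fold changes were -0.92 (SE 0.0602, edgeR adjusted p = 1.38e-06) and -1.26 (SE 0.136, adjusted p = 7.65e-05), or -1.06 without that library (adjusted p = 8.52e-09). Every Dox library was below every 0 h library of its clone.

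The other 3 paralogs were not called lower in all 4 clones. SEC24A fell in the shIRE1 clones, from 119.6, 109 and 108 CPM to 66.6, 64.6 and 70.5 CPM in clone 1 (log2 fold change -0.74, edgeR adjusted p = 1.36e-10) and from 135, 137 and 135 CPM to 56.3, 56.2 and 61.1 CPM in clone 3 (-1.24, adjusted p = 1.43e-11). In shXBP1 clone 1 it stood at 83.0, 103 and 105 CPM at 0 h and 102, 107 and 109 CPM at 72 h, overlapping groups with a log2 fold change of 0.11 (adjusted p = 0.433). In clone 18 its call at 72 h (-0.27, adjusted p = 0.0453) was lost without the library that stood apart (-0.17, adjusted p = 0.0840). SEC24B was called in no clone, with log2 fold changes of -0.09, 0.10, 0.18 and 0.11 [0.11] and edgeR adjusted p of 0.126, 0.134, 0.0523 and 0.244 in the order of clones used above. SEC24C was lower in shIRE1 clone 1 (-0.22) and in both shXBP1 clones (-0.37 and -0.42 [-0.41]), and at -0.10 without a call in shIRE1 clone 3, and its call in shIRE1 clone 1 was lost with total count scaling (-0.08, adjusted p = 0.174).

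PREB, the exchange factor that loads SAR1, had the largest difference in response between the shIRE1 clones at 72 h (1.01, clone 1 minus clone 3, edgeR adjusted p = 1.38e-11). It went from 381, 378 and 377 CPM to 283, 277 and 276 CPM at 72 h in clone 1 (-0.45, edgeR adjusted p = 2.07e-07) and from 558, 479 and 514 CPM to 193, 193 and 182 CPM in clone 3 (-1.46, adjusted p = 9.10e-11). Its log2 fold changes in the shXBP1 clones were -0.21 (adjusted p = 0.0385) and -0.54 [-0.52] (adjusted p = 8.47e-05), and the first call was lost with total count scaling (-0.12, adjusted p = 0.164) and without any 1 of 5 of its 6 libraries. SEC13 of the outer cage was lower in all 4 clones, at -0.93, -1.13, -0.46 and -0.51 [-0.41] on the log2 scale, while its partner SEC31A was called at 72 h in 1 clone, shXBP1 clone 18 (-0.25 [-0.23]). Of the GTPases, SAR1A was lower in 3 clones (-0.70, -0.46 and -0.27) and at -0.15 [-0.17] without a call in shXBP1 clone 18. SEC23B, an inner coat subunit, rose in shIRE1 clone 1 (0.34) and fell in clone 3 (-0.16) and in shXBP1 clone 18 (-0.47 [-0.40]). SEC23A rose in shXBP1 clone 1 (0.28) and fell in shIRE1 clone 3 (-0.44).

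COPI genes mostly fell as well. Of 10 genes with ARF4 and its regulators, 7, 9, 6 and 10 were lower at 72 h in shIRE1 clones 1 and 3 and shXBP1 clones 1 and 18, and 1, 1, 0 and 0 were higher. The 10 in clone 18 became 8 without the library that stood apart, since COPB1 (-0.22, edgeR adjusted p = 0.0537) and COPZ1 were then not called. Medians of the 10 genes were -0.24, -0.50, -0.20 and -0.30 [-0.23] on the log2 scale. COPG1, the gamma subunit, was lower in all 4 at -0.33, -0.79, -0.29 and -0.57 [-0.50]. COPZ1, the zeta subunit, was lower at -0.38, -0.53, -0.19 and -0.24, but in clone 18 not without the library that stood apart (-0.16, edgeR adjusted p = 0.0752), nor without any 1 of its 0 h libraries (adjusted p of 0.124 to 0.174) or with the replicate block (adjusted p = 0.0659). With total count scaling COPZ1 was called in neither shXBP1 clone (-0.11, edgeR adjusted p = 0.0941, and -0.19, adjusted p = 0.0992). The small GTPase ARF4 was lower at -0.24, -0.52, -0.27 and -0.70 [-0.63], but with total count scaling not in shIRE1 clone 1 (-0.10, edgeR adjusted p = 0.110) nor in shXBP1 clone 1 (-0.18, adjusted p = 0.0870). The alpha and beta subunits COPA, COPB1 and COPB2 were not called in shXBP1 clone 1, where their log2 fold changes were 0.04, 0.04 and -0.02.

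COPE, the epsilon subunit, was called lower in all 4 clones at 72 h, with libraries of 1 group that lay far apart. Its libraries in shXBP1 clone 1 stood at 303, 195 and 179 CPM at 0 h and 135, 96.7 and 104 CPM at 72 h, and in clone 18 at 174, 149.6 and 153 CPM and 116, 83.5 and 105 CPM. The log2 fold changes of -1.03 (SE 0.275, edgeR adjusted p = 0.0138) and -0.64 [-0.66] (SE 0.149, adjusted p = 0.0197) have wide errors. The call in clone 1 was lost without 0 h replicate 1 (-0.75, edgeR adjusted p = 0.0592) and without 72 h replicate 2 (adjusted p = 0.0640) or 3 (adjusted p = 0.0584). That in clone 18 was lost without 0 h replicate 1 (-0.56, edgeR adjusted p = 0.0819) or 3 (adjusted p = 0.0553). The log2 fold changes of COPE were -0.65 and -0.72 in the shIRE1 clones, with SE of 0.108 and 0.163.

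ARFGAP3, which stimulates GTP hydrolysis on ARF proteins, moved in opposite directions in the shIRE1 clones. It stood at 39.8, 40.4 and 38.3 CPM at 0 h and 46.3, 47.7 and 47.0 CPM at 72 h in clone 1 (0.25, edgeR adjusted p = 0.000304), and at 71.0, 68.1 and 68.8 CPM and 44.1, 45.2 and 46.8 CPM in clone 3 (-0.62, adjusted p = 1.25e-07). The 72 h libraries of these clones overlapped, and the 0 h libraries did not. In shXBP1 clone 1 it fell from 36.2, 40.2 and 39.2 CPM to 31.0, 30.7 and 29.2 CPM (-0.37). In clone 18 it fell from 90.8, 89.0 and 86.8 CPM to 46.0, 45.4 and 30.6 CPM (-1.13, or -0.96 without the library that stood apart, the last value). GBF1, the exchange factor that loads ARF proteins, was higher in shIRE1 clone 3 (0.21) and lower in shXBP1 clones 1 and 18 (-0.21 and -0.16 [-0.17]).

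The 3 KDEL receptors fell in both shIRE1 clones, and KDELR3 fell most. KDELR3 stood at 6.66, 6.00 and 6.51 CPM in the 0 h libraries of shIRE1 clone 1 and 6.10, 5.78 and 6.47 CPM after 24 h. It then dropped to 2.65, 2.43 and 2.79 CPM by 48 h and 2.21, 2.11 and 2.23 CPM by 72 h. The 24 h libraries thus overlapped the 0 h ones, and the fall came between 24 and 48 h. In clone 3 it went from 10.9, 8.77 and 9.25 CPM to 5.16, 4.59 and 4.16 CPM at 24 h and 1.69, 1.78 and 2.17 CPM at 72 h. The log2 fold changes at 72 h were -1.55 (SE 0.110, edgeR adjusted p = 4.40e-10) and -2.38 (SE 0.141, adjusted p = 1.29e-09).

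With shXBP1, the change of KDELR3 differed between the clones by 0.99 at 72 h (clone 1 minus clone 18, edgeR adjusted p = 2.80e-06), or by 0.92 without the library that stood apart. In clone 1 it stood at 7.84, 9.34 and 9.44 CPM at 0 h and 8.74, 8.70 and 7.73 CPM at 72 h, and the groups overlapped (-0.10, SE 0.119, edgeR adjusted p = 0.531). In clone 18, which began higher, it fell from 17.9, 16.4 and 17.5 CPM to 7.67, 9.12 and 7.83 CPM (-1.07 [-1.03], adjusted p = 2.30e-05), so that both clones ended at similar levels. KDELR1 was lower in all 4 clones, at -0.71, -1.22, -0.49 and -0.32 [-0.24] on the log2 scale, and KDELR2 at -0.79, -1.03, -0.62 and -0.74 [-0.61]. Without 0 h replicate 1 or 3 KDELR1 was not called in shXBP1 clone 18 (edgeR adjusted p of 0.0681 and 0.0720). Exons of KDELR3 overlap DDX17 on the opposite strand and those of KDELR2 overlap DAGLB on the same strand.

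The p24 proteins, which shuttle between ER and Golgi with GPI-anchored and other cargo, fell as a family in the shIRE1 clones, with 6 of 6 lower at 72 h in each and medians of -0.91 and -1.097. In shXBP1 clones 1 and 18, 4 and 5 of 6 were lower, with medians of -0.55 and -0.49 [-0.45], and 5 were also lower in clone 18 without the library that stood apart. TMED2 was lower at -1.14, -1.25, -0.52 and -0.48 [-0.48], and TMED10 at -0.90, -1.21, -0.58 and -0.74 [-0.64]. TMED5 showed a wider gap between the hairpins, with -0.96 and -1.38 for shIRE1, -0.30 without a call in shXBP1 clone 1 (edgeR adjusted p = 0.0713) and -0.43 [-0.42] in clone 18. TMED7 was lower in both shIRE1 clones (-0.93 and -0.72) and was called in neither shXBP1 clone (-0.36 and -0.28 [-0.23]). TMED3 was lower in all 4 clones at -0.44, -0.46, -0.58 and -0.50 [-0.37].

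TMED9 fell in all 4 clones. It went from 327, 328 and 326 CPM to 183, 180.2 and 184 CPM in shIRE1 clone 1 and from 356, 324 and 339 CPM to 169.7, 183 and 167 CPM in clone 3. It went from 412, 379.9 and 374 CPM to 214, 207 and 207 CPM in shXBP1 clone 1 and from 435, 411 and 424 CPM to 239, 225 and 191 CPM in clone 18. No 72 h library reached a 0 h library of its clone, and the log2 fold changes were -0.85, -0.98, -0.92 and -0.95 [-0.86], with edgeR adjusted p of at most 6.89e-06.

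LMAN1, LMAN2, MCFD2 and SURF4, the 4 genes listed as cargo receptors (MIA3 was listed with COPII), were lower in all 4 clones at 72 h, with medians of -1.31 and -1.28 in the shIRE1 clones and -0.63 and -0.57 [-0.52] in the shXBP1 clones. SURF4, a receptor for soluble secreted proteins, went from 441, 450.5 and 460.4 CPM at 0 h to 195, 201 and 206 CPM at 24 h and 155, 157 and 157 CPM at 72 h in shIRE1 clone 1. In clone 3 it went from 435, 404 and 421 CPM to 195, 208 and 212 CPM and then 158, 159.8 and 152 CPM. Most of the fall was thus reached by 24 h (-1.17 and -1.04), and the 72 h values were -1.53 (SE 0.0352, edgeR adjusted p = 1.04e-16) and -1.43 (SE 0.0512, adjusted p = 5.46e-12).

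In the shXBP1 clones SURF4 fell less. It went from 575, 533 and 524 CPM to 333, 334 and 322 CPM in clone 1 (-0.74, edgeR adjusted p = 1.90e-06) and from 565, 545 and 547 CPM to 393, 369 and 327 CPM in clone 18 (-0.60 [-0.53], adjusted p = 0.000108). The groups did not overlap in either clone, and every shXBP1 library at 72 h stayed above every shIRE1 library at 72 h.

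LMAN1, also called ERGIC-53, and its cofactor MCFD2 form a receptor for coagulation factors. MCFD2 went from 93.7, 91.6 and 88.7 CPM to 37.2, 40.8 and 39.5 CPM by 24 h in shIRE1 clone 1 and was at 35.6, 34.2 and 34.4 CPM at 72 h. It went from 78.7, 79.2 and 73.7 CPM to 34.9, 32.8 and 33.2 CPM and then 33.1, 35.0 and 39.0 CPM in clone 3. The 72 h log2 fold changes of MCFD2 were -1.40 and -1.12, with edgeR adjusted p of 5.56e-14 and 5.89e-10, and those at 24 h were -1.22 and -1.20. In the shXBP1 clones they were -0.59 (adjusted p = 0.000223) and -0.28 [-0.26] (adjusted p = 0.0138), the latter not called without 0 h replicate 2 (adjusted p = 0.0813) or 3 (adjusted p = 0.0732). LMAN1 was lower at -1.23 and -1.5 with shIRE1 and at -0.49 and -0.66 [-0.61] with shXBP1. The related lectin LMAN2 was lower at -0.90, -0.99, -0.66 and -0.54 [-0.51].

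**Figure D3:**
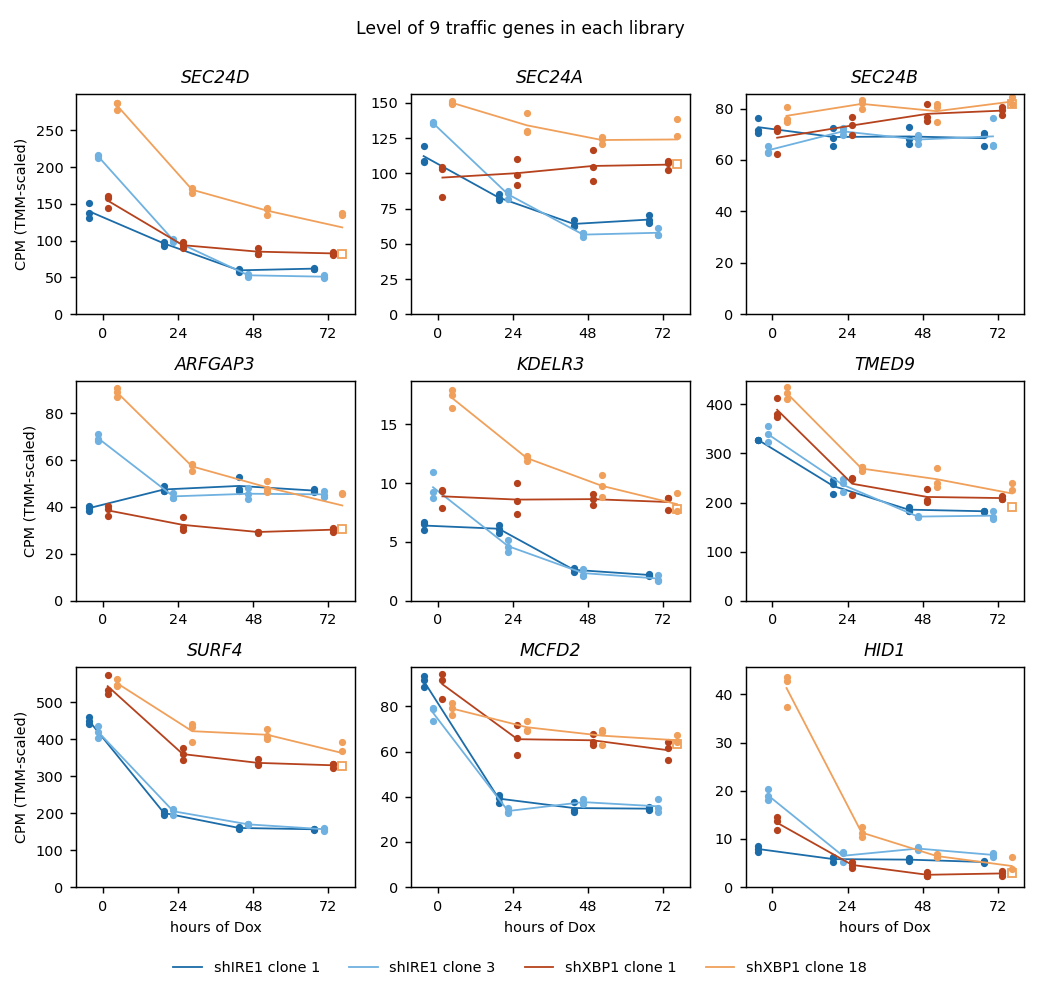
Level of 9 of the genes (TMM-scaled CPM, axes from 0) in each of the 48 libraries against hours of Dox, with points shifted sideways by clone and lines through group means. The open square is the library labelled shXBP1 clone 18, 72 h, replicate 3. SURF4 and MCFD2 in the shIRE1 clones have dropped by 24 h, KDELR3 in shIRE1 clone 1 drops after 24 h, SEC24B was called in no clone at 72 h, and HID1 in shXBP1 clone 18 starts near 41 CPM and ends below 7 CPM.

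No tether or SNARE was called in 1 direction in all 4 clones at 72 h. Of all genes tested, 31.1%, 30.5%, 16.8% and 5.55% were lower then in shIRE1 clones 1 and 3 and shXBP1 clones 1 and 18. Without the library that stood apart, 4.48% were lower in shXBP1 clone 18. In shIRE1 clone 3, 29.7% were higher. Of the 2 tethers, USO1 (p115) and GOLGB1 (giantin), neither was called at 72 h in shIRE1 clone 1 or shXBP1 clone 1. USO1 was lower in shIRE1 clone 3 (-0.52) and both were lower in shXBP1 clone 18 (-0.40 [-0.38] and -0.43 [-0.44]). Of the 5 SNAREs 2, 3, 2 and 5 were lower, the last becoming 4 without the library that stood apart, where SEC22B was not called (-0.44, edgeR adjusted p = 0.0847), and 2 were higher in shIRE1 clone 3, namely GOSR2 (0.23) and YKT6 (0.14). Both of these were lower in shXBP1 clone 1 (-0.29 and -0.44) and in clone 18 (-0.49 [-0.36] and -0.25 [-0.19]). BET1 and STX5 fell in shIRE1 clone 3 (-0.89 and -0.73) and in shXBP1 clone 18 (-0.46 [-0.36] and -0.43 [-0.44]).

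HID1, a peripheral Golgi protein needed to form dense core secretory vesicles, had the deepest fall with shXBP1. It went from 14.5, 13.6 and 11.9 CPM at 0 h to 3.88, 5.29 and 4.59 CPM at 24 h and 3.23, 2.34 and 2.90 CPM at 72 h in clone 1. In clone 18 it went from 43.6, 37.5 and 42.9 CPM to 10.3, 11.2 and 12.4 CPM and then 6.32, 3.83 and 2.96 CPM. The groups were far apart, and the log2 fold changes at 72 h were -2.26 (SE 0.161, edgeR adjusted p = 2.24e-06) and -3.24 (SE 0.196, adjusted p = 4.20e-07), or -3.01 without the library that stood apart (adjusted p = 2.54e-08).

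In the shIRE1 clones HID1 fell less. It went from 7.19, 7.95 and 8.54 CPM to 5.31, 4.995 and 5.29 CPM in clone 1 (-0.61, SE 0.101, edgeR adjusted p = 3.34e-05) and from 18.9, 18.0 and 20.4 CPM to 7.13, 6.61 and 6.27 CPM in clone 3 (-1.53, SE 0.115, adjusted p = 1.98e-08). At 72 h every shIRE1 clone 1 library was above the shXBP1 clone 1 libraries, although clone 1 of shIRE1 had the lowest HID1 level of the 4 clones at 0 h.

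The next question was whether the response to shIRE1 differed from that to shXBP1. The mean change of the shIRE1 clones minus that of the shXBP1 clones was tested in 1 model of all 48 libraries. Its p-values, SE and intervals measure the spread between replicate cultures. They leave out the spread between the clones of a hairpin. At 24 h 12 of 45 genes were lower with shIRE1 (19.7% of all genes tested) and 9 were higher (19.1%). At 48 h 27 were lower (28.0%) and 7 higher (28.9%), and at 72 h 25 were lower (27.4%) and 8 higher (28.0%). Without the library that stood apart, 26 were lower (27.1% of all) and 8 higher (27.2%) at 72 h. SEC31A was then no longer called higher (0.09, edgeR adjusted p = 0.0957).

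The 6 largest differences at 72 h were those of HID1 (1.69, SE 0.154, edgeR adjusted p = 3.55e-12), KDELR3 (-1.38, SE 0.115, adjusted p = 2.63e-13), SEC24A (-0.91, adjusted p = 2.88e-13), MCFD2 (-0.83, adjusted p = 4.88e-14), SURF4 (-0.81, adjusted p = 3.03e-17) and TMED5 (-0.81, adjusted p = 7.95e-10). A negative value means a deeper fall with shIRE1. MCFD2 and SURF4 already differed at 24 h, by -0.90 and -0.61. KDELR3 went from -0.29 at 24 h to -1.24 at 48 h, and HID1 from 0.71 to 1.67. The 8 genes that were higher with shIRE1 at 72 h were HID1, ARFGAP3, GOSR2, SEC23B, YKT6, GBF1, SEC24C and SEC31A. Their differences apart from that of HID1 were 0.56, 0.45, 0.37, 0.31, 0.27, 0.24 and 0.11. Without the library that stood apart the differences of HID1, KDELR3, SEC24A, MCFD2, SURF4 and TMED5 were 1.56, -1.40, -0.97, -0.85, -0.85 and -0.83, that of ARFGAP3 was 0.47 and that of SEC24D -0.65.

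For 12 genes no difference was called at 72 h. TMED9 had a difference of 0.02 (SE 0.0642, 95% interval -0.11 to 0.15), ARF4 one of 0.10 (95% interval -0.05 to 0.26) and TMED3 one of 0.09 (95% interval -0.06 to 0.25). COPE (0.15, 95% interval -0.27 to 0.57) had an interval too wide to place it on either side. Without the library that stood apart the differences of TMED9, ARF4, TMED3 and COPE were -0.04, 0.06, 0.02 and 0.15. SEC24D fell with both hairpins and still differed (-0.54, adjusted p = 3.11e-06). At 24 h its difference was -0.08 (adjusted p = 0.487). The silencing itself was not matched, since the shIRE1 clones kept most of their XBP1 mRNA level while the shXBP1 clones kept little, and the spliced form was not counted apart.

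**Figure D4:**
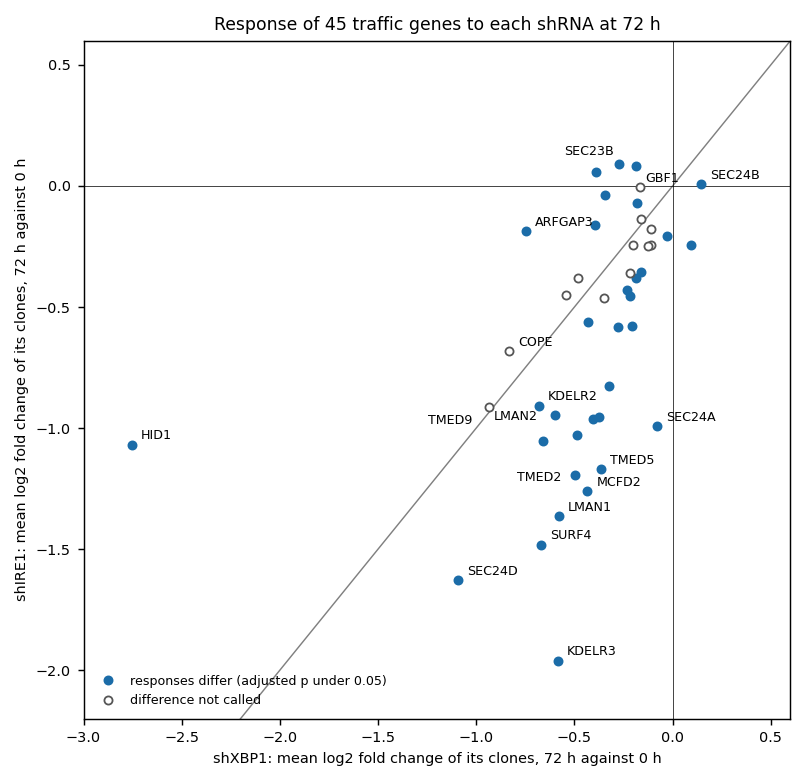
Mean log2 fold change at 72 h over the shIRE1 clones (vertical axis) against that over the shXBP1 clones (horizontal axis), 1 point per gene, with the line of equal change. Filled points are the 33 genes whose responses differ at an edgeR adjusted p under 0.05. Most filled points lie below the line, and HID1 lies far to the left of it.

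The clones of one shRNA also differed. Before Dox, 27 of the 45 were called between clones 1 and 3 of shIRE1 (40.6% of all genes tested) and 33 between clones 1 and 18 of shXBP1 (51.3%). At 72 h the change from 0 h differed between the shIRE1 clones for 24 genes (27.5%) and between the shXBP1 clones for 19 (24.6%), or 18 without the library that stood apart (19.8%). HID1, ARFGAP3, SEC24D and KDELR3 were each higher at 0 h in shIRE1 clone 3 than in clone 1 and in shXBP1 clone 18 than in clone 1. Clone 1 minus the other clone, their log2 differences at 0 h were -1.27, -0.81, -0.61 and -0.60 for shIRE1 and -1.63, -1.20, -0.88 and -0.96 for shXBP1.

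With Dox the clones came closer in level. The median absolute log2 ratio between the mean levels of the shIRE1 clones over the 45 genes was 0.238, 0.0925, 0.105 and 0.0731 at the successive times, and over all genes of at least 1 CPM it was 0.258, 0.118, 0.157 and 0.136. Between the shXBP1 clones, without the library that stood apart, it was 0.340, 0.235, 0.177 and 0.170 for the 45 genes and 0.312, 0.210, 0.194 and 0.180 for all genes. The ratios over all genes narrowed too. The number of the 45 genes that differed by over 1.2-fold went from 16 at 0 h to 4 at 72 h between the shIRE1 clones and from 25 to 10 between the shXBP1 clones, while over all genes of at least 1 CPM that share went from 49.2% to 24.1% and from 56.9% to 35.5%. The change in a clone and its level at 0 h share the 0 h libraries, so the differences at 0 h and those in response are not independent.

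**Figure D5:**
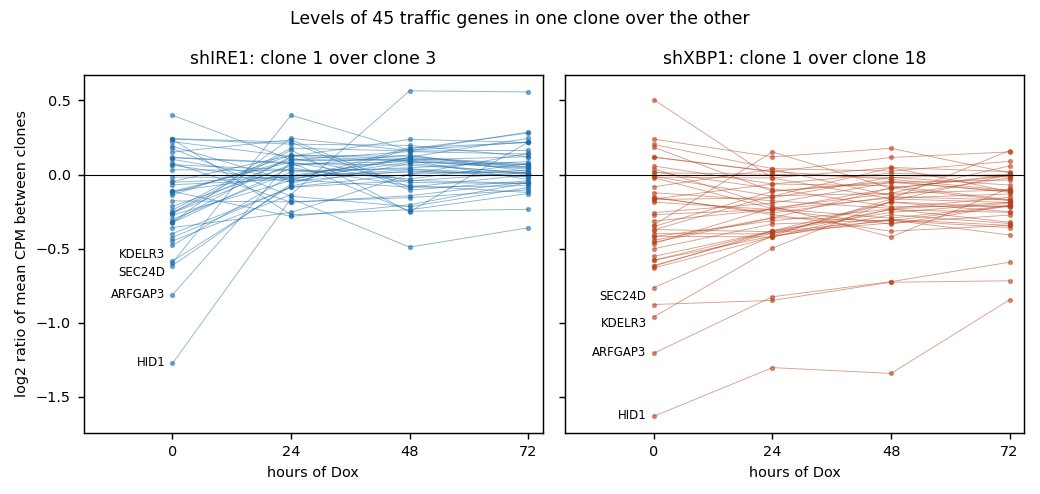
Log2 ratio of the mean CPM of clone 1 over the other clone for each of the 45 genes against hours of Dox, 1 line per gene, for shIRE1 (left) and shXBP1 (right, without the library labelled clone 18, 72 h, replicate 3). The lines are widest apart at 0 h, where HID1, ARFGAP3, SEC24D and KDELR3 lie lowest, and narrow with time around 0 for shIRE1 and below 0 for shXBP1.

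The changes of genes with and without these promoter letters are given as a description. At 72 h the 18 genes with either core had median log2 fold changes of -0.36, -0.46, -0.20 and -0.30 [-0.24] in shIRE1 clones 1 and 3 and shXBP1 clones 1 and 18. The 21 with a promoter but neither core had -0.30, -0.70, -0.29 and -0.43 [-0.36], and the 6 with no promoter entry -0.70, -1.01, -0.77 and -0.84 [-0.74]. The 9 genes with the UPRE core had -0.22, -0.44, -0.02 and -0.27 [-0.22]. These 9 include KDELR3 and SEC24A, which fell in both shIRE1 clones, and SEC23A and STX5, whose log2 fold changes in shIRE1 clone 1 were -0.04 and -0.13.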

How the data were processed

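RNA from 48 AMO1 cultures was made into stranded poly(A) libraries and sequenced by the authors. The deposited table of raw counts per gene was used for every test. A deposited log2 table was only checked, and equals log2 CPM with a prior count of 2. The submitters' processing notes name GSNAP, edgeR 3.32.1, limma 3.46.0, R 4.1.3, GRCh37 and hg19, and strand use in counting is not given in the sources used here. No coordinates of the counted genes are printed.

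Each clone's 12 libraries were fitted with edgeR 4.0.16 in R 4.3.3 (TMM, filterByExpr with a minimum count of 10 and total of 15, quasi-likelihood test, Benjamini-Hochberg over all genes tested, threshold 0.05), and differences between responses in 1 fit of 48. The SE is the absolute log2 fold change over the square root of F, and 95% intervals use 32 residual degrees of freedom. The code was tested on simulated data. DESeq2 1.42.0, limma 3.58.1, other scalings, filters, blocks and leave-one-out fits were alternatives. Scaling by total counts and omitting the library that stood apart were chosen after the data were seen. Genes and lists were chosen with earlier results of these data known.

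Genes were named with values if called in 1 direction in all 4 clones at 72 h, if among the 6 largest mean changes per shRNA or the 6 largest differences between shRNAs at 72 h, or as KDEL receptors or SEC24 paralogs. Others named to show the spread within a role were chosen after their values were seen. Replicate numbers were not used to pair samples in the main fits (correlations of deviations from -0.41 to 0.25). These correlations were over 0.1 in 3 of 9 pairs in shXBP1 clone 1 and 1 of 9 in shIRE1 clone 3. P-values measure the spread between cultures of 1 clone, and the replicates were grouped as labelled.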

Additional observations from a re-analysis of the deposited data

Results flagged for a closer look

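At 72 h the response to shIRE1 differed from that to shXBP1 for 33 of the 45 genes, where 55.3% of all genes tested differed. The edgeR test of the difference used all 48 libraries. The largest differences, shIRE1 minus shXBP1 on the log2 scale, were those of HID1 (1.69), KDELR3 (-1.38), SEC24A (-0.91), MCFD2 (-0.83), SURF4 (-0.81) and TMED5 (-0.81).

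The clones of shIRE1 differed in response at 72 h for 24 genes by the same kind of test, where 27.5% of all genes differed. Clone 1 minus clone 3, the largest differences were those of PREB (1.01), HID1 (0.91), SEC24D (0.89), ARFGAP3 (0.86), KDELR3 (0.82) and BET1 (0.61), all of them deeper falls in clone 3, except that ARFGAP3 rose in clone 1.

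The clones of shXBP1 differed for 19 genes, where 24.6% of all genes differed. Clone 1 minus clone 18, the largest differences were those of HID1 (1.01), KDELR3 (0.99), ARFGAP3 (0.78), GOLGB1 (0.57), ARF4 (0.46) and USO1 (0.43). Without the library labelled clone 18, 72 h, replicate 3 they were 0.74, 0.92, 0.58, 0.54, 0.35 and 0.37 in the same order. The level at 0 h differed between these clones too, and its part in the differences in response was not tested.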

How the results depend on the processing

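Counts of the 45 genes called stayed within 1.5 times under DESeq2, limma, other scalings, no filter and 1 fit of all 48 libraries, with the exceptions given here. With only the 6 libraries compared, 13 genes in place of 24 were called in shXBP1 clone 1 at 24 h, and 22 in place of 37 in clone 18 at 72 h, a fit with fewer samples. With no filter, the clones of shXBP1 differed in response at 24 h for 4 genes in place of 8, and the cause was not tested. Scaling by total counts turned the median of the 45 genes in shIRE1 clone 1 at 24 h from -0.15 to 0.0024, and COPG1 and TMED3 there to 0.0272 and 0.0186.

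Leaving out 1 library at a time gave 6 to 25 genes in shXBP1 clone 18 at 24 h (19 with all), the counts of 6 to 9 being those without any 1 of 0 h replicates 1 to 3 or 24 h replicates 2 and 3, and 25 that without 72 h replicate 3. At 48 h it gave 17 to 36 (28 with all), with 17 and 18 without 0 h replicates 2 and 3, and at 72 h 23 (without 0 h replicate 3) to 37 (37 with all). For the difference in response between the shXBP1 clones at 24 h it gave 3 to 10 genes (8 with all), the counts under 6 being those without clone 1 replicate 1 at 0 or 24 h, or without clone 18 replicates 2 or 3 at 0 or 24 h.

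With the replicate block, counts at 24, 48 and 72 h were 29, 34 and 33 in shIRE1 clone 1, 34, 37 and 39 in clone 3, 19, 23 and 25 in shXBP1 clone 1 and 18, 26 and 35 in clone 18, and no count moved by over 1.5 times. Same-numbered samples deviated together (r over 0.1) in 1 of 9 pairs in shIRE1 clone 3, in 3 of 9 in shXBP1 clone 1 and in 0 of 9 in each of the others. Of 2736 values of named genes under these alternatives 2615 kept direction and call, 66 lost the call, 53 gained it and 2 turned. A clone stands for 1 founder cell and has 3 cultures a group, which limits what the p-values cover, and 1 count was worth no more than 0.0521 CPM.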
